A study of Oncorhynchus mykiss with 24 samples.

Results

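The mRNAs described here are rainbow trout liver mRNAs classed under response to stimulus, apart from complement, lectins and a few other named families. Members were chosen by group differences in these same fish: they are the array spots that published lists of mRNAs differing between pairs of groups place in the functional category response to stimulus, without those described as complement, lectin, lipocalin, superoxide dismutase, hemoglobin, epoxide hydrolase or an Ig chain. This left 60 spots out of 81 in that category and out of 486 listed spots, on an array of 43689 oligos. They carry 44 different descriptions, and 9 descriptions are shared by more than 1 spot, covering 25 members. For each description the spot with the highest mean Cy5 signal stands for it and is called its representative spot.

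Liver RNA of 24 fish was hybridised, 1 fish per array in Cy5, against a common Cy3 pool of RNA from 6 size-matched wild fish. There were 6 fish in each of 4 groups. D was a domesticated strain from Campbell Lake Trout Farms that had been selected for growth, labelled as reared in 2007. W/D was the F1 hybrid of the mother of the D fish and the father of the Wa fish. Per the paper its cross was made in 2007, as were those of D and Wa. Wa was the wild strain from Pennask Lake, matched in age to D and also labelled 2007. Ws was the same wild strain labelled 2006, matched to D in size. No group carried a transgene or received a treatment, and food was withheld before sampling. Per the paper, rearing conditions were the same for all, but each family was kept on its own. The fish of D, W/D and Wa each came from a single cross, so strain, family and rearing unit cannot be told apart. Ws fish came from randomly mated wild parents of the year before. Year, age, family and rearing unit therefore cannot be told apart in comparisons with Ws, nor can size between Ws and Wa. Weights and lengths varied between all groups, with D and Ws heavier than W/D and Wa. Body size therefore cannot be told apart from strain among D, W/D and Wa, or between W/D and Ws. Each slide held 1 fish of every group at a fixed position, and this position cannot be told apart from the group. Dyes were not swapped.

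The liver is the main site where an animal detoxifies foreign and internal chemicals. Oxidising enzymes such as cytochromes P450 and alcohol or aldehyde dehydrogenases act first, transferases then attach glutathione or glucuronic acid, and peroxidases, peroxiredoxins and sulfoxide reductases deal with peroxides and oxidised proteins. Hepatocytes also break down heme, store iron and secrete antimicrobial and clotting proteins into the blood.

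Values are log2 ratios of a fish to the reference pool, after background correction and within-array normalisation, so that a difference of 1 is 2-fold. The 6 fish of a group were taken as separate animals, although the titles of D replicates 4 and 6 carry the same fish number. Because the lists that chose the members tested all 6 pairings of the same 24 fish, every group difference below is a description of members already known to differ somewhere, and no p-value of a member is given. Calls repeat on the same fish the kind of comparison that chose the members, so they describe them and are no independent test. Standard errors (SE) come from a linear model over all 24 arrays, and a spot is called in a pairing when its adjusted p-value was at most 0.05 and its difference at least 2-fold. Of the 60 members, 56 passed the filter on dim spots, which asked for a Cy5 signal of 300 or more on all arrays of at least 1 group. Of these, 24 passed in all 4 groups and 3 in a single group, namely type-4 ice-structuring protein LS-12, barrier-to-autointegration factor and the saxitoxin and tetrodotoxin-binding protein 2. The last of these passed through W/D, where it was brightest, and so had to differ. The other 2 missed the filter elsewhere with 7 and 4 values lost to the quality flag, at median signals far above 300. The 4 members that did not pass were antigen peptide transporter 1, heat shock protein 30, transketolase and alcohol dehydrogenase [NADP+], which lost 12 of its 24 values to that flag. The flag also marks saturated spots, but only 1 value of alcohol dehydrogenase [NADP+] was saturated. Of the members that passed, 9 did so in only 2 groups. Natural resistance-associated macrophage protein 2, B-cell linker protein and LEAP-2 passed through D and W/D. Thioredoxin-interacting protein, heme oxygenase and 1 spot of methionine-R-sulfoxide reductase B1 passed through W/D and Wa. Each of these was brightest in the groups that kept it, so the filter favoured a difference from the other groups. Cytotoxic and regulatory T-cell molecule passed through Wa and Ws and missed the filter in W/D, its dimmest group. The filter therefore favoured a difference of W/D from Wa and Ws there as well. Among members that passed in 3 groups, some missed only the group of their lowest median signal. For the DHRS13 spots, charged multivesicular body protein 2b, UDP-glucuronosyltransferase 2A1 and UDP-glucuronosyltransferase 2B15 this was D. For BolA-like protein 2 it was Ws. The same limit holds for their differences from that group.

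Between 33.6% and 46.2% of oligos per array lay above local background. Median Cy5 signal ran from 214.2 to 246.3 units in D, from 206.2 to 233.3 in W/D, from 197 to 208.5 in Wa and from 198.3 to 203.8 in Ws, so D arrays were brighter than Wa and Ws arrays before normalisation. Spots for blood, muscle and B cells could be found only where the lists name them, and those spots were themselves listed for a group difference. The mean log2 ratio of 19 hemoglobin spots had its highest median in D, at 0.63, followed by W/D (0.16), Wa (-0.19) and Ws (-0.68), and their summed signal ran from 224000 to 506000 units in D and from 75500 to 161000 in Ws. The 6 sarcomeric actin spots had medians of -0.57 (D), -1.87 (W/D), -1.45 (Wa) and 0.26 (Ws). The 4 Ig chain spots had medians of 0.36 (D), 0.65 (W/D), 0.71 (Wa) and 0.45 (Ws). The part of these levels in the values below was not tested. Of 12 hepatocyte marker genes 1 could be matched to a named spot, so the liver label was not checked further. In whole liver, fewer cells of a type and less RNA per cell cannot be told apart.

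Members were listed most often in the pairings of D with the wild groups. In D relative to Wa 30 were listed, 15 of them higher and 15 lower in D, and 23 were called, where 3.58% of all 8679 oligos kept by the filter were called. Of the calls 12 were higher and 11 lower in D, shares reached by 2% and 1.58% of kept oligos. In D relative to Ws 31 were listed, 23 higher and 8 lower. There 23 were called against 3.45% of all kept oligos, 17 of them higher in D (2.43% of kept oligos) and 6 lower (1.01%). Nothing is read from these counts, since the same pairings chose the members. W/D relative to Ws had 26 listed, 20 higher and 6 lower, with 17 called against 2.06% of kept oligos, 12 of them higher in W/D (1.39%) and 5 lower (0.668%). W/D relative to D had 18 listed, 8 higher and 10 lower, with 12 called against 0.749%. W/D relative to Wa had 14 listed, 6 higher and 8 lower, with 10 called against 0.933%. The 2 wild groups were the pairing with the fewest members, 9 listed and 5 called in Wa relative to Ws, against 0.887% of kept oligos. This count was 1 without replicate 1, 2 or 6 of every group and 3 without replicate 5. That of W/D against Wa was 6 without replicate 1 or 5, that of W/D against Ws was 9 without replicate 6, and that of W/D against D was 7 without replicate 1. By role the members comprised 12 spots for glutathione conjugation, 13 for peroxide and redox control, 3 for heme and iron, 4 for drug and toxin handling, 13 for retinoid, alcohol and aldehyde oxidoreductases, 11 for antimicrobial and immune functions and 4 for heat and cold.

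**Figure D1:**
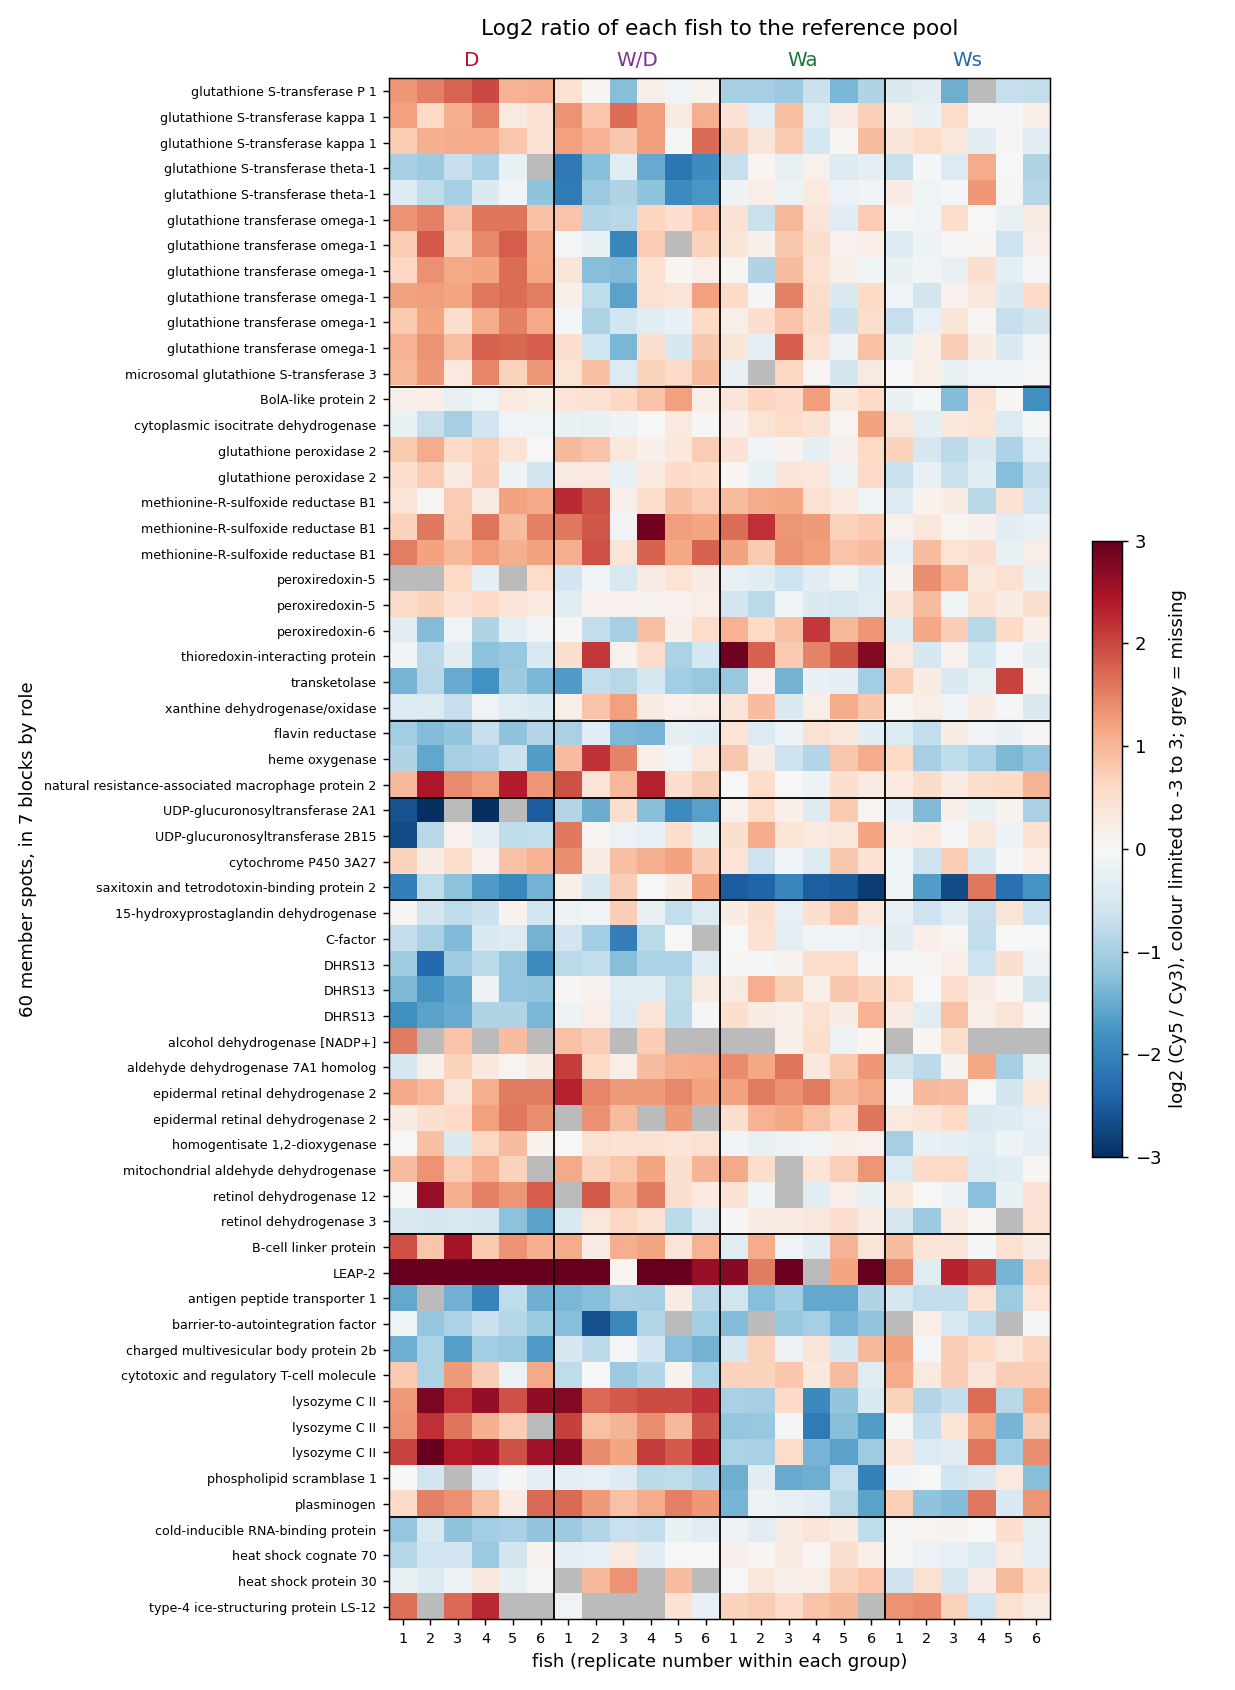
Log2 ratio (Cy5 over Cy3, colour scale from -3 to 3, grey for missing values) of all 60 member spots in rows and 24 fish in columns, in blocks by role. The 6 omega-1 spots and the P 1 spot were red in the D fish, UDP-glucuronosyltransferase 2A1 was dark blue in the 4 D fish with a value, and LEAP-2 was dark red in all 6 D fish.

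Glutathione transferases attach glutathione to reactive compounds so that they can be excreted, and most of the 12 spots were higher in D than in the wild groups. Of these, 8 were listed higher and 0 lower in D relative to Ws, among them all 6 spots of glutathione transferase omega-1. The median difference was 1.24 over the 12 against -0.01 over all kept oligos. Against Wa 5 were listed higher in D and 0 lower, 3 of them omega-1 spots, with a median of 0.93 against -0.02. In W/D relative to D 7 were listed lower and 0 higher, again with all 6 omega-1 spots, and the median was -1.20. These medians rest largely on 1 description and on members chosen for differing, so nothing is read from them.

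Glutathione S-transferase P 1, the pi-class cytosolic enzyme, set D apart most clearly in this role. Its log2 ratio was 1.05 at the lowest, 1.42 at the median and 1.98 at the highest in D, and -1.29, 0.08 and 0.46 in W/D. It was -1.38, -0.99 and -0.65 in Wa, and -1.47, -0.69 and -0.33 in the 5 Ws fish with a value. Every D fish lay above every fish of the other groups with a value. The hybrid fish were intermediate except for 1 fish, W/D replicate 3, which lay among the wild fish. D was 5.47-fold higher than Wa (log2 difference 2.45, SE 0.25) and 4.53-fold higher than Ws, and W/D was 2.93-fold lower than D. Fish of both groups did not overlap in D relative to Wa, a property of 3.63% of oligos with all 12 values, nor in W/D relative to D, where that share was 1.28%.

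Glutathione transferase omega-1, which also reduces dehydroascorbate and mixed disulfides in mammals, was represented by 6 spots. The representative spot ran from 0.62 through a median of 1.17 to 1.67 in D and from -1.33 through 0.12 to 0.46 in W/D. It ran from -0.91 through 0.12 to 0.93 in Wa and from -0.30 through -0.14 to 0.49 in Ws. All D fish lay above all hybrid and Ws fish, while W/D, Wa and Ws fish overlapped one another. The difference was 2.36-fold in D relative to Ws, 2.13-fold in D relative to Wa and 2.72-fold lower in W/D relative to D. Across the 6 spots the log2 difference ran from 1.23 to 1.45 for D over Ws and from -1.55 to -1.12 for the hybrid over D. All 6 spots were called in the first of these pairings and 5 in the second. For D over Wa the spots ran from 0.70 to 1.09, with 2 of 6 called, and the representative spot was the largest. W/D replicate 3 was the lowest hybrid fish on 4 of the 6 spots, and Wa replicate 3 was the highest Wa fish on all 6. Spots of 1 name share the mRNA or its close copies and are not separate evidence.

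The other transferases differed less. Microsomal glutathione S-transferase 3, a membrane enzyme that also reduces lipid peroxides, ran from 0.30 to 1.46 with a median of 1.15 in D and from -0.20 to 0.17 with a median of -0.06 in Ws. The 2 groups did not overlap, at 3.43% of oligos in that pairing, and D was 2.07-fold higher. Its medians were 0.63 in W/D and 0.06 in the 5 Wa fish with a value. Both spots of glutathione S-transferase kappa 1, the mitochondrial and peroxisomal form, were listed as higher in W/D relative to Ws, by 0.90 and 0.97, and neither was called. Glutathione S-transferase theta-1, known for handling small halogenated compounds, went the other way in the hybrid. Its representative spot had medians of -1.71 in W/D, -0.97 in D, -0.25 in Wa and -0.23 in Ws. W/D was lower than Wa by 1.32 and 1.49 on the 2 spots and lower than Ws by 1.40 and 1.58. On the second spot the hybrid fish, from -2.12 to -0.90, did not overlap Wa, at 1.25% of oligos in that pairing, or Ws, at 2.02%.

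The members that handle peroxides and thiols showed no common direction. Of 13 spots, 2 were listed higher and 4 lower in D relative to Wa, and 4 higher and 1 lower in D relative to Ws. For the hybrid against Ws, 5 were listed higher and 1 lower. Thioredoxin-interacting protein, which binds thioredoxin and limits its reducing activity, had the widest range of these. It ran from 0.79 through a median of 1.82 to 2.91 in Wa, and from -0.96 through 0.30 to 2.11 in W/D. It ran from -1.23 through -0.63 to -0.09 in D and from -0.52 through -0.17 to 0.29 in Ws. Every Wa fish lay above every D and every Ws fish, and the hybrid fish reached from the D range into the Wa range. The spot was above background on all 6 Wa arrays, on 4 of 6 W/D arrays and on none of the D or Ws arrays, so the levels of D and Ws are known only as upper limits. The log2 ratios gave 6.07-fold for Wa over D and 4.26-fold for Wa over Ws. The Cy5 channel alone gave 6.73-fold and 5.59-fold, so the size depended on the scale. A floor for the dim group at the lowest signal above background left these values unchanged and so gave no bound. W/D relative to D was not called, and no fold is given between D and Ws. In Wa relative to Ws, 1.61% of oligos did not overlap between the fish.

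Peroxiredoxin-6, which reduces phospholipid hydroperoxides with glutathione, was also lower in D than in Wa. It ran from -1.31 through -0.29 to -0.10 in D and from 0.59 through 1.02 to 2.11 in Wa. The 2 groups did not overlap, and D was 3.15-fold lower (log2 difference -1.66, SE 0.33). Medians were 0.09 in W/D and 0.38 in Ws, and both of these groups overlapped D. Peroxiredoxin-5, a mitochondrial and peroxisomal enzyme, had the opposite sign, with its 2 spots higher in D relative to Wa by 0.64 and 0.95, both listed and neither called. The representative spot had values for only 3 D fish. Ws was not low like Wa, with means of 0.51 and 0.38 on the 2 spots against 0.30 and 0.49 in D.

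Methionine-R-sulfoxide reductase B1, a selenoprotein that repairs oxidised methionine, was lower in Ws than in every other group. Its representative spot had medians of 1.20 (D), 1.46 (W/D), 1.06 (Wa) and 0.29 (Ws). All 6 D fish, from 1.00 to 1.54, lay above the Ws fish, from -0.25 to 0.93. Over its 3 spots the log2 difference ran from 0.81 to 1.16 in D, from 0.80 to 1.30 in Wa and from 1.09 to 1.42 in W/D, each against Ws. Of the 3 spots 1 was called in D, 1 in Wa and 3 in W/D. W/D replicate 3 was the lowest hybrid fish on all 3 spots. Glutathione peroxidase 2, a selenium enzyme that removes peroxides, had a like order on its representative spot, with medians of 0.38 (D), 0.29 (W/D), 0.20 (Wa) and -0.67 (Ws). Its 2 spots were higher in D relative to Ws by 0.90 and 0.99, both listed and neither called. BolA-like protein 2, which works with glutaredoxin in iron-sulfur cluster handling, had medians of 0.16, 0.54, 0.59 and -0.12 in the same order of groups. It was 2.17-fold higher in Wa relative to Ws and 2.16-fold higher in W/D relative to Ws, with overlap in both pairings, and Ws replicates 6 and 3 at -1.83 and -1.30 lay below the rest of their group.

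The 3 other enzymes in this group were lower in D than in a wild group. Cytoplasmic isocitrate dehydrogenase, an NADPH source, ran from -0.99 to -0.11 in D and from 0.09 to 1.21 in Wa, without overlap and with a 1.89-fold lower mean in D. Xanthine dehydrogenase/oxidase, an enzyme of purine breakdown that can give off superoxide, had medians of -0.41 (D), 0.21 (W/D), 0.59 (Wa) and 0.01 (Ws). It was 1.87-fold lower in D relative to Wa. Transketolase, of the non-oxidative pentose phosphate pathway, did not pass the filter. It ran from -1.81 through -1.38 to -0.84 in D, from -1.71 through -0.94 to -0.52 in W/D and from -0.44 through 0.13 to 2.02 in Ws. Neither D nor W/D overlapped Ws, and the differences were 3.31-fold and 2.61-fold lower on a spot that was above background on only 2 of 6 D arrays. Between D and Ws arrays its reference channel differed by 0.65 on the log2 scale and its Cy5 channel by -1.07. For W/D and Ws arrays these were 0.33 and -1.06.

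Of the 3 spots for heme and iron, heme oxygenase separated the hybrid from D. This enzyme opens heme into biliverdin, iron and carbon monoxide. It ran from -1.69 through -0.96 to -0.65 in D and from -0.08 through 0.62 to 2.17 in W/D, with no overlap. It ran from -0.87 through 0.52 to 1.12 in Wa and from -1.34 through -0.97 to 0.59 in Ws. W/D was 3.88-fold higher than D and 3.04-fold higher than Ws, and D was 2.58-fold lower than Wa. Ws replicate 1, at 0.59, was the only Ws fish within the hybrid range.

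Flavin reductase, which reduces biliverdin and flavins, ran from -1.29 through -1.12 to -0.69 in D and from -0.42 through 0.07 to 0.46 in Wa. The groups did not overlap, and D was 2.13-fold lower. Hybrid and Ws medians were -0.66 and -0.14. Natural resistance-associated macrophage protein 2, known in mammals as the divalent metal transporter that moves iron into cells, had the opposite sign. It ran from 0.97 through 1.38 to 2.44 in D and from -0.16 through 0.13 to 0.54 in Wa, again without overlap. D was 2.71-fold higher than Wa and 2.13-fold higher than Ws. Hemoglobin spots were also highest in D, and their part in these 3 values was not tested.

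**Figure D2:**
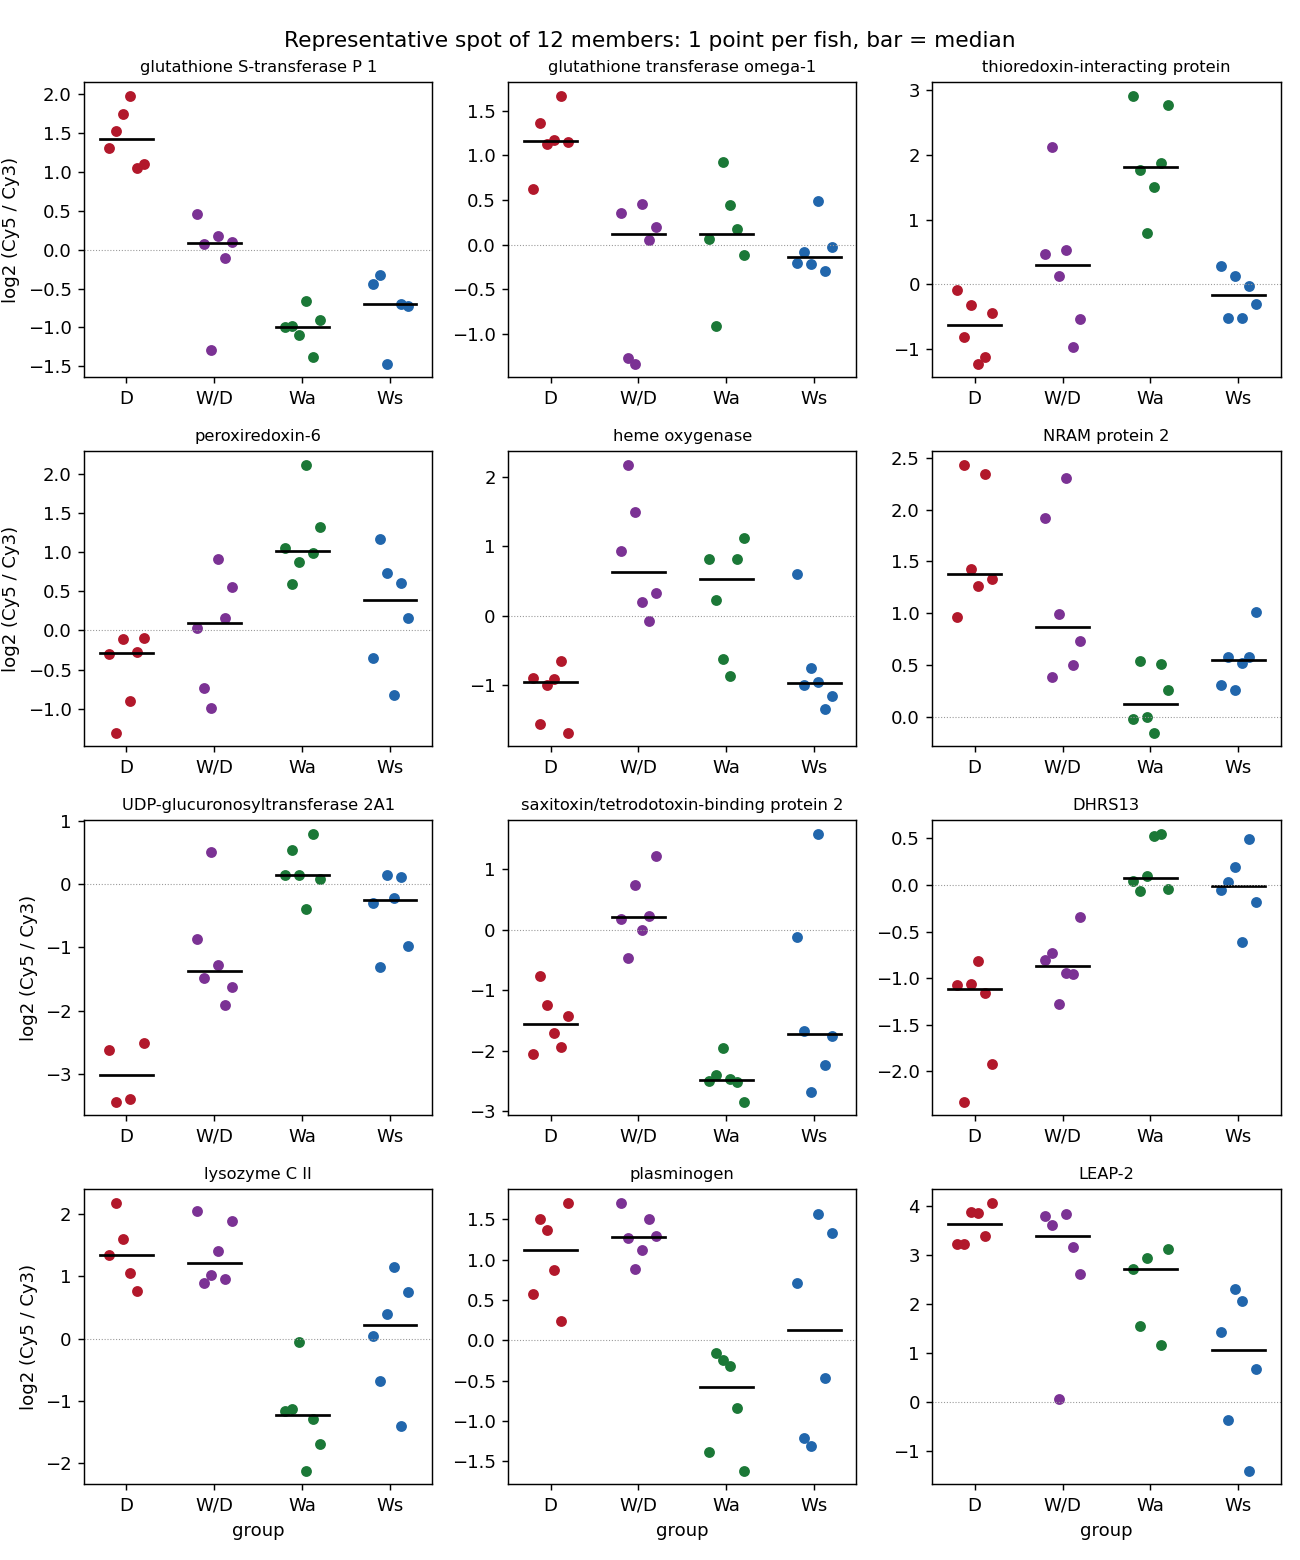
Log2 ratio (Cy5 over Cy3, vertical axes differ between panels) of the representative spot of 12 members in the 4 groups, 1 point per fish with a value and a bar at the median. D lay apart from Wa for glutathione S-transferase P 1, thioredoxin-interacting protein, peroxiredoxin-6 and UDP-glucuronosyltransferase 2A1, while heme oxygenase and the saxitoxin and tetrodotoxin-binding protein 2 separated W/D from D.

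Among drug and toxin handlers, UDP-glucuronosyltransferase 2A1 had the largest difference of any representative spot. These enzymes attach glucuronic acid to steroids, bile pigments and drugs. The 4 D fish with a value ran from -3.44 through -3.01 to -2.50, and the other 2 were removed by the quality flag. The spot was above background on 5 of 6 D arrays and missed the filter in D alone, its dimmest group, so the filter favoured its differences from D. W/D ran from -1.90 through -1.38 to 0.51, Wa from -0.40 through 0.14 to 0.79 and Ws from -1.31 through -0.26 to 0.14. The measured D fish lay below every fish of the other 3 groups. The hybrid fish lay between D and Wa except for W/D replicate 3 at 0.51, which fell inside the Wa range. D was 9.21-fold lower than Wa (log2 difference -3.20, SE 0.36) and 5.89-fold lower than Ws, and W/D was 3.68-fold higher than D and 2.5-fold lower than Wa.

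UDP-glucuronosyltransferase 2B15 showed a smaller difference in the same direction. It ran from -2.69 through -0.75 to 0.14 in D and from 0.29 through 0.45 to 1.19 in Wa. The groups did not overlap and D was 2.83-fold lower, with D replicate 1 at -2.69 far below the other D fish. Medians were -0.07 in W/D and 0.25 in Ws. Cytochrome P450 3A27, a trout enzyme of the family that oxidises steroids and drugs, was listed in W/D relative to Ws, where it was 1.97-fold higher. Its medians were 0.60 (D), 0.99 (W/D), 0.16 (Wa) and -0.09 (Ws).

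The saxitoxin and tetrodotoxin-binding protein 2, named after a pufferfish plasma protein that binds these toxins, was highest in the hybrid. It ran from -0.46 through 0.20 to 1.22 in W/D, from -2.05 through -1.56 to -0.76 in D and from -2.84 through -2.49 to -1.95 in Wa. It ran from -2.68 through -1.72 to 1.58 in Ws, the widest range of the 4 groups. The hybrid fish lay above all D and all Wa fish. The highest single value was that of Ws replicate 4. W/D was 6.79-fold higher than Wa, called in 15 of 15 alternative settings, and 3.56-fold higher than D, called in only 7 of 15. Leaving out replicate 1, 3, 5 or 6, or D replicate 6 alone, ended the second call. The spot passed the filter through W/D alone and was above background on 3 of 6 Wa arrays.

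Oxidoreductases of retinoids, alcohols and aldehydes differed by gene. Relative to Wa, 2 of 13 spots were listed higher and 5 lower in D, with a median difference of -0.76. The pairing with Ws listed 5 higher and 3 lower in D, and 5 higher and 0 lower in the hybrid. DHRS13, a short-chain dehydrogenase, made up 3 of the spots. Its representative spot ran from -2.33 through -1.12 to -0.82 in D and from -1.28 through -0.87 to -0.34 in W/D. It ran from -0.06 through 0.07 to 0.55 in Wa and from -0.61 through -0.01 to 0.49 in Ws. On this spot D lay below both wild groups without overlap, and W/D lay below Wa. D was 2.99-fold lower than Wa and 2.59-fold lower than Ws, and all 3 spots were called in both pairings, with log2 differences from -1.83 to -1.58 and from -1.59 to -1.33. D lay below Wa on all 3 spots, but on 1 of them D replicate 4 at -0.17 lay above Ws replicate 6 at -0.55. On the spots other than the representative one, W/D overlapped Wa. The 3 spots were above background on 3, 4 and 5 of 6 D arrays, so the sizes are uncertain. They parted for the hybrid. W/D relative to D was higher by 0.55 to 1.22, called on 2 of 3 spots and not on the representative one, and W/D relative to Wa was called on that one alone.

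Retinol dehydrogenase 3, which oxidises retinol, ran from -1.61 through -0.50 to -0.43 in D and from 0.05 through 0.24 to 0.49 in Wa. The groups did not overlap, and D was 2.08-fold lower. Its medians were 0.00 in W/D and 0.05 in Ws. Retinol dehydrogenase 12, which works on retinal and lipid aldehydes, had the opposite sign, with medians of 1.42 (D), 1.07 (W/D), -0.09 (Wa) and -0.06 (Ws). D was 2.60-fold higher than Wa and 2.87-fold higher than Ws, with overlap through D replicate 1 at -0.02.

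Epidermal retinal dehydrogenase 2, a retinol-oxidising enzyme, was lower in Ws than in the other groups. Its representative spot ran from -0.55 through 0.18 to 0.96 in Ws and from 0.99 through 1.28 to 1.55 in Wa. It ran from 1.21 through 1.37 to 2.30 in W/D and from 0.38 through 1.12 to 1.56 in D. On this spot the Ws fish lay below all Wa and all hybrid fish and overlapped D. Wa was 2.03-fold and W/D 2.33-fold higher than Ws. On the other spot of this name Wa fish, from 0.47 to 1.61, overlapped Ws fish, from -0.43 to 0.60. Only 3 hybrid fish had a value there. Aldehyde dehydrogenase 7A1 homolog, of lysine breakdown, was 2.49-fold higher in Wa relative to Ws and 2.32-fold higher in W/D relative to Ws, with Ws replicate 4 at 1.15 overlapping both. Mitochondrial aldehyde dehydrogenase, which clears acetaldehyde, was listed in all 3 pairings with Ws, higher by 0.94 in D, 0.88 in W/D and 0.81 in Wa, and was called in none. Homogentisate 1,2-dioxygenase of tyrosine breakdown was 1.66-fold higher in D relative to Ws. Alcohol dehydrogenase [NADP+], an aldehyde reductase, had medians of 0.92 in 3 D fish and 0.11 in 4 Wa fish. 15-hydroxyprostaglandin dehydrogenase, which inactivates prostaglandins, was 1.69-fold lower in D relative to Wa. Its means were -0.40 (D), -0.15 (W/D), 0.36 (Wa) and -0.35 (Ws), so Ws was about as low as D. C-factor, a spot named after a bacterial protein, was 1.82-fold lower in W/D relative to Wa. Its hybrid fish, from -2.07 to -0.02, overlapped Wa, from -0.28 to 0.43. D was as low, from -1.41 to -0.41, and lay below all Wa fish.

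**Figure D3:**
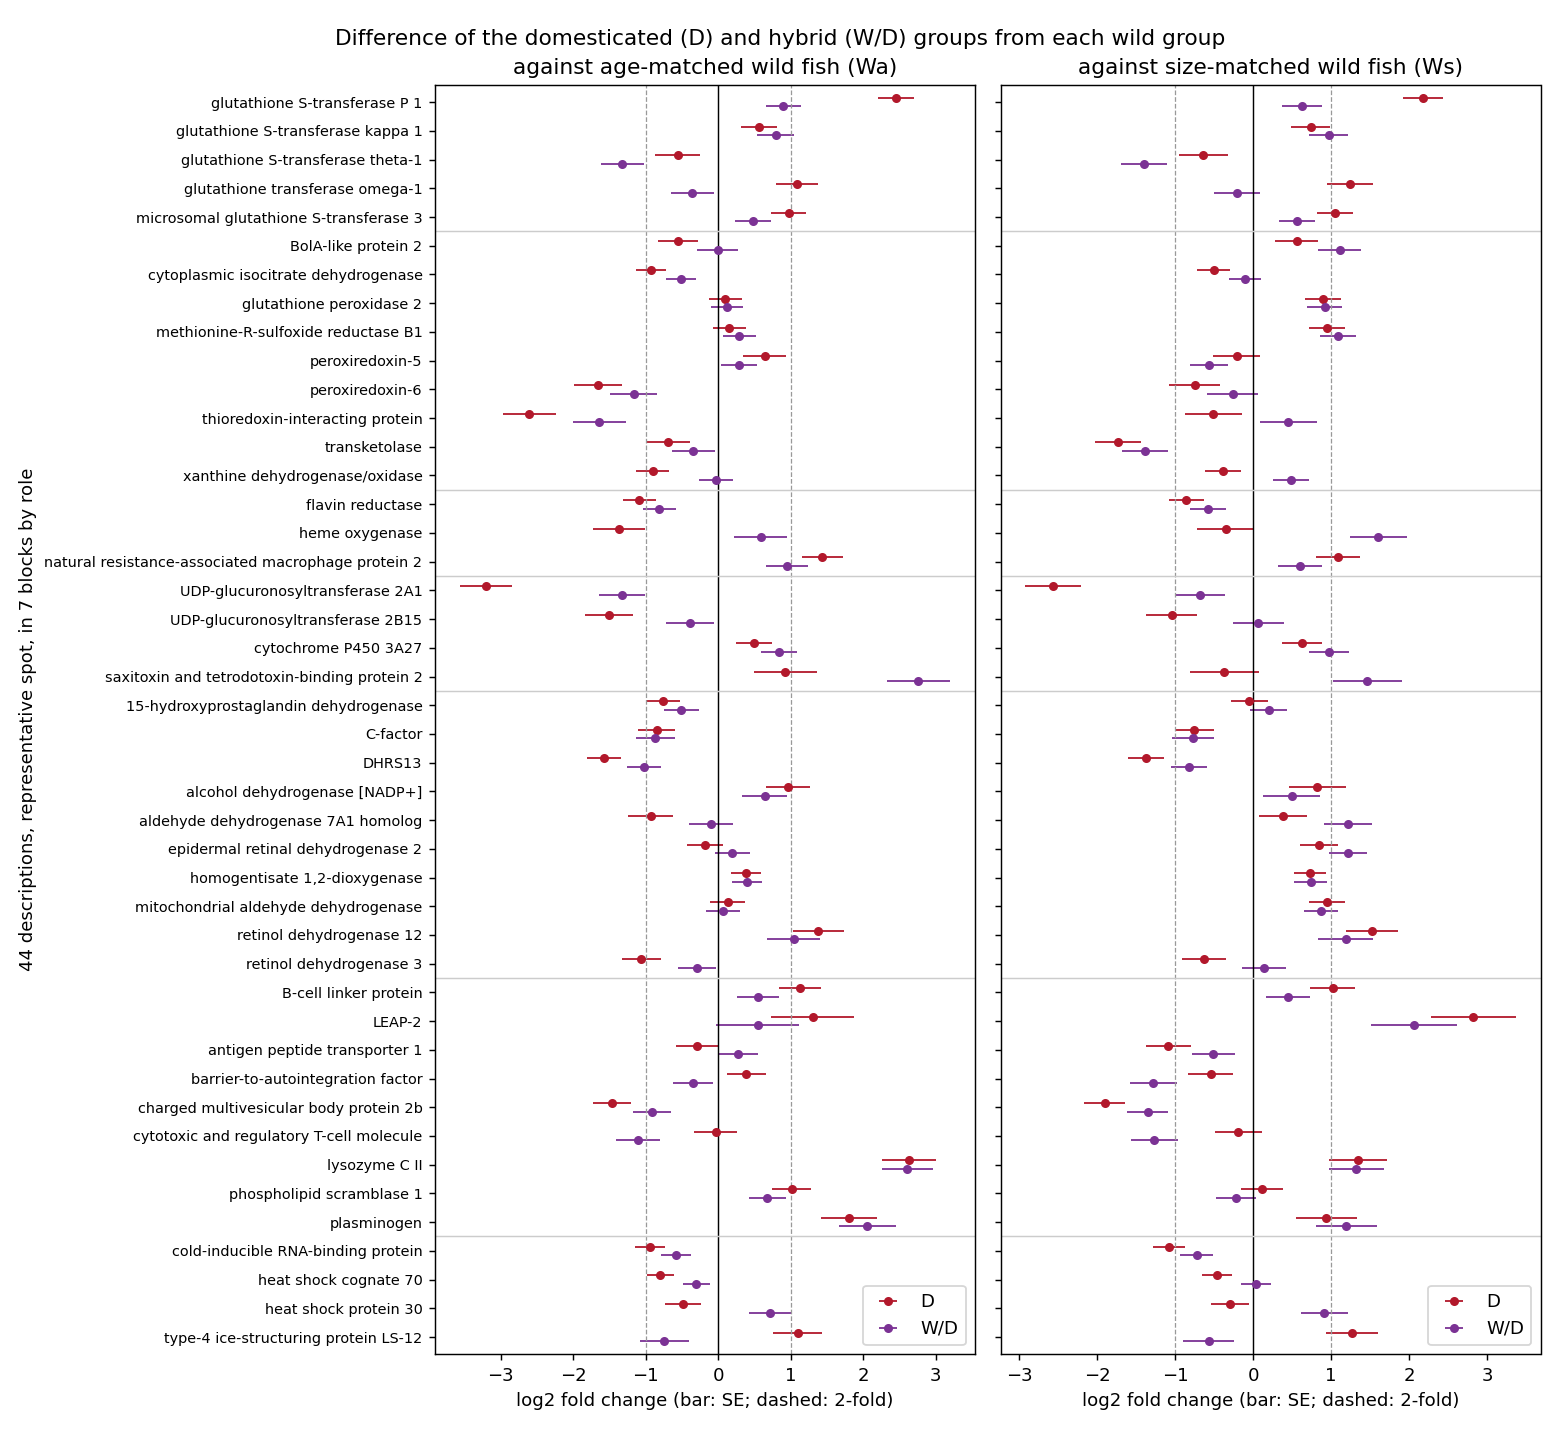
Log2 fold change of D (red) and W/D (purple) relative to Wa in the left panel and to Ws in the right panel, for the representative spot of each of 44 descriptions, with bars of 1 standard error and dashed lines at 2-fold. UDP-glucuronosyltransferase 2A1 lay farthest to the left for D in both panels, while lysozyme C II lay to the right for D and W/D in both.

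Antimicrobial and immune members included some of the largest differences. The role is broad and also holds plasminogen, charged multivesicular body protein 2b and barrier-to-autointegration factor. Relative to Wa, 5 of 11 spots were listed higher and 1 lower in D, and the median over the 11 was 1.13. Of the 5, 3 were spots of lysozyme C II and 1 was plasminogen, and the lower spot was charged multivesicular body protein 2b. In Wa relative to Ws 0 were listed higher and 2 lower, with a median of -0.86. Lysozyme C II, which cuts bacterial cell walls, was high in both groups with domesticated parentage. Its representative spot ran from 0.77 through 1.34 to 2.18 in 5 D fish and from 0.89 through 1.21 to 2.05 in W/D. It ran from -2.12 through -1.22 to -0.06 in Wa and from -1.40 through 0.22 to 1.16 in Ws. All measured D fish and all hybrid fish lay above all Wa fish, and the Ws fish spread across the gap. D was 6.18-fold and W/D 6.10-fold higher than Wa. Over the 3 spots the log2 difference ran from 2.63 to 3.30 in D relative to Wa and from 2.61 to 2.89 in W/D relative to Wa, with all 3 called in both, and W/D differed from D by -0.47 to -0.02. The same fish were highest on all 3 spots, D replicate 2, W/D replicate 1, Wa replicate 3 and Ws replicate 4.

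Plasminogen, the blood zymogen of the enzyme that dissolves fibrin, was likewise high in D and W/D and lowest in Wa, with the hybrid mean above that of D. It ran from 0.24 through 1.12 to 1.71 in D and from 0.88 through 1.29 to 1.71 in W/D. It ran from -1.62 through -0.58 to -0.16 in Wa and from -1.31 through 0.12 to 1.57 in Ws. D and hybrid fish lay above all Wa fish, and Ws covered nearly the whole span. W/D was 4.16-fold and D 3.49-fold higher than Wa. The reference channel of this spot differed between W/D and Wa arrays as well, by 1.22 on the log2 scale, although the reference pool was the same, and the Cy5 channel differed by 3.28.

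LEAP-2, a liver-expressed antimicrobial peptide, ran from 3.23 through 3.62 to 4.06 in D and from 0.07 through 3.39 to 3.84 in W/D. It ran from 1.18 through 2.72 to 3.12 in 5 Wa fish and from -1.40 through 1.06 to 2.30 in Ws. D fish lay above all measured Wa and all Ws fish. The hybrid fish lay above all Ws fish and overlapped D, apart from W/D replicate 3 at 0.07. D was 7.08-fold higher than Ws (log2 difference 2.82, SE 0.55) and W/D 4.18-fold higher than Ws. D relative to Wa, at 1.31 with SE 0.57, was neither listed nor called.

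Charged multivesicular body protein 2b, part of the membrane-cutting ESCRT-III complex, was low in D. It ran from -1.70 through -1.29 to -0.94 in D and from -1.43 through -0.68 to -0.03 in W/D. It ran from -0.51 through 0.12 to 0.96 in Wa and from -0.04 through 0.63 to 1.20 in Ws. D lay below both wild groups without overlap, and the hybrid fish overlapped D and Wa. D was 2.76-fold lower than Wa and 3.74-fold lower than Ws, on a spot above background on only 3 of 6 D arrays, so the size of both differences is uncertain. Cytotoxic and regulatory T-cell molecule, a receptor of activated lymphocytes, was lower in the hybrid than in any other group, from -1.10 through -0.82 to 0.10 in W/D against 0.30 through 0.73 to 1.12 in Ws. W/D and Ws did not overlap, and W/D was 2.40-fold lower. Medians were 0.77 in D and 0.68 in Wa.

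B-cell linker protein, an adaptor of the B-cell receptor, was higher in D, by 2.18-fold relative to Wa and 2.03-fold relative to Ws, with overlap in both. The Ig chain spots had their lowest median log2 ratio in D, at 0.36, with overlap with Ws at 0.45. Their summed signal was not lowest in D, running from 2030 to 5710 units there and from 1340 to 2770 in Ws. The part of B cells in the B-cell linker protein values was not tested. Phospholipid scramblase 1, an interferon-inducible membrane protein, was 2.03-fold higher in D relative to Wa, with a median of -0.27 in D and -1.46 in Wa. That difference was called in 6 of 15 alternative settings. Medians were -0.58 in W/D and -0.26 in Ws, so Wa was low and D was level with Ws. Barrier-to-autointegration factor, which binds DNA at the nuclear envelope, ran from -2.65 through -1.27 to -0.88 in 5 W/D fish and from -0.75 through -0.26 to 0.19 in 4 Ws fish. The measured fish did not overlap, and W/D was 2.42-fold lower. The hybrid was not low alone, since medians were -1.18 in 5 Wa fish and -0.91 in D. The measured Wa fish also lay below all measured Ws fish. Wa relative to Ws, at -0.93, was listed and not called. Antigen peptide transporter 1, which carries peptides to MHC class I molecules, was 2.12-fold lower in D relative to Ws, on a spot that was above background on 1 of 6 D arrays. Between these arrays its reference channel differed by 0.52 on the log2 scale and its Cy5 channel by only -0.56.

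Among the heat and cold members, cold-inducible RNA-binding protein, an mRNA-binding protein raised by mild cold in mammals, ran from -1.21 through -1.10 to -0.45 in D and from -0.29 through 0.06 to 0.50 in Ws. The groups did not overlap, and D was 2.11-fold lower. Medians were -0.71 in W/D and 0.02 in Wa. Heat shock cognate 70, the constitutive chaperone, was 1.74-fold lower in D relative to Wa. Heat shock protein 30, a small heat shock protein, had values for 3 hybrid fish, from 0.93 through 0.98 to 1.36, above the 6 D fish, from -0.40 through -0.18 to 0.32. The spot was above background on only 1 of 6 W/D arrays, so most of these hybrid values were not. Type-4 ice-structuring protein LS-12, named after a sculpin antifreeze protein, ran from 1.66 through 1.70 to 2.25 in 3 D fish and from -0.24 through -0.10 to 0.43 in 3 W/D fish, with medians of 0.77 in Wa and 0.57 in Ws. It was 3.57-fold lower in W/D relative to D, and 7 of its 24 values were missing. Its reference channel differed in that pairing by -0.64 on the log2 scale, and its Cy5 channel by -2.48.

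**Figure D4:**
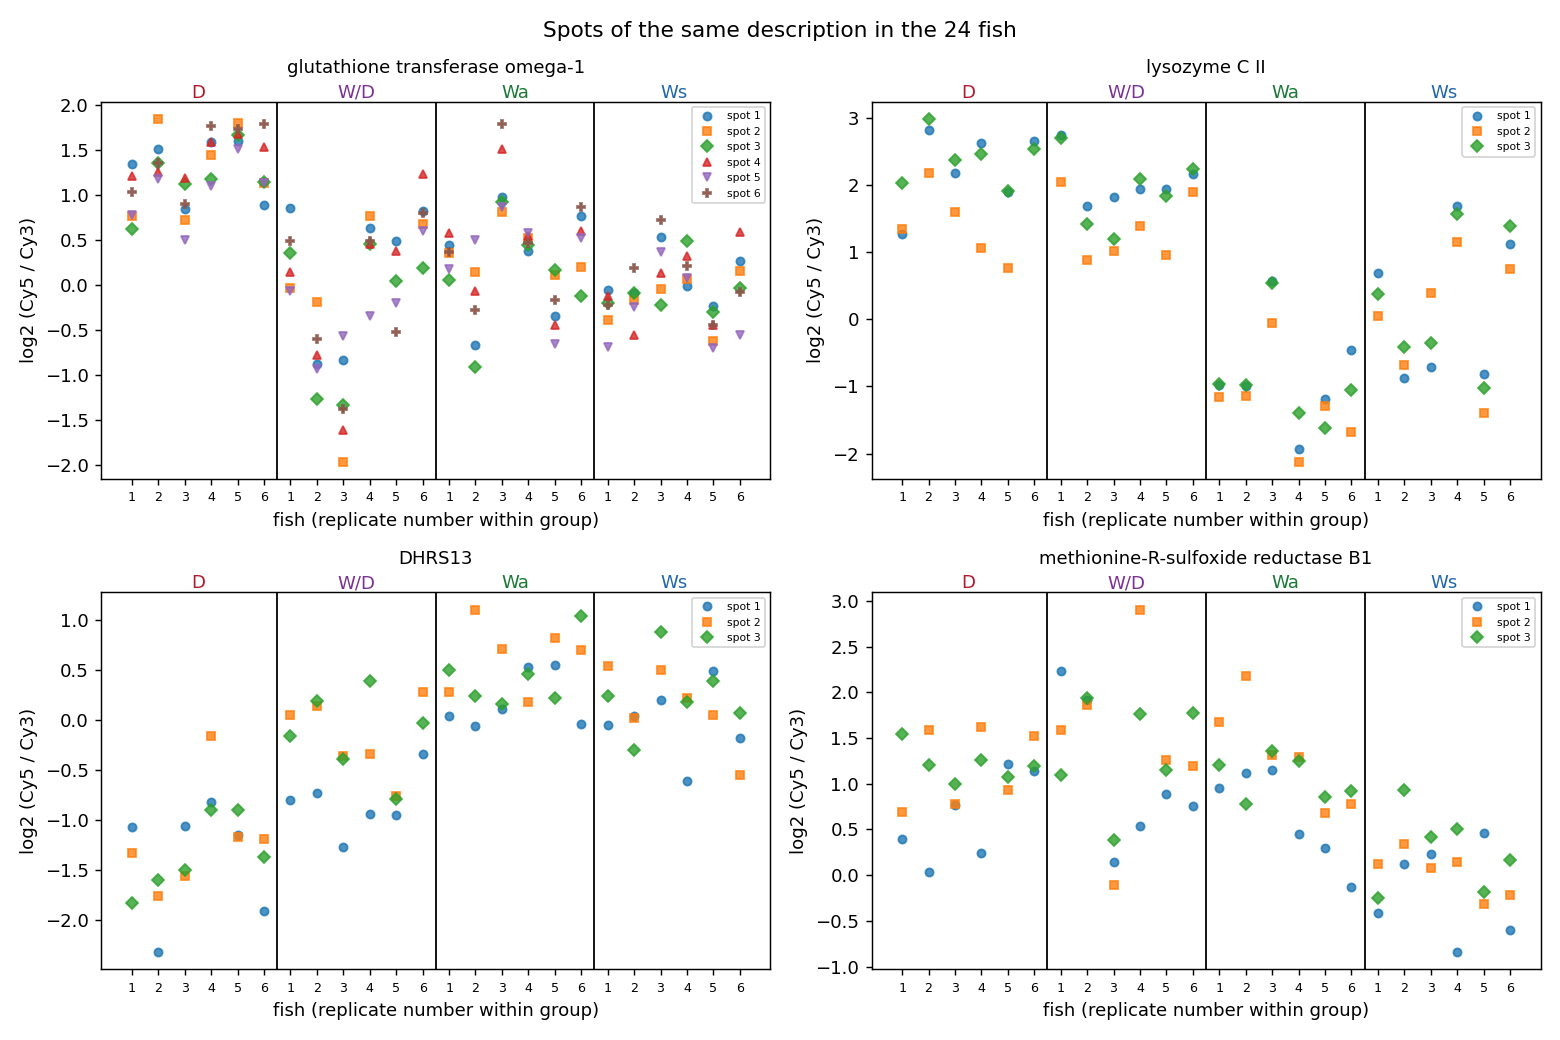
Log2 ratio (Cy5 over Cy3) of each spot of 4 descriptions in the 24 fish, in columns by group and replicate number, 1 symbol per spot. The 3 lysozyme C II spots kept the same highest fish in each group, and the 6 omega-1 spots lay higher in D than in Ws.

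Among all members, D had the highest group mean for 21 spots and the lowest for 19, Ws the highest for 9 and the lowest for 20, Wa the highest for 16 and the lowest for 12, and W/D the highest for 14 and the lowest for 9. The hybrid mean lay between D and Wa for 33 of 60 members (55%), against 44.5% of all kept oligos, and between D and Ws for 26 (43.3%), against 41.8%. These shares are descriptions, since the same group means entered the choice of members. The median standard deviation among fish was 0.51 for members in W/D against 0.39 for all kept oligos, 0.40 against 0.38 in both D and Wa, and 0.44 against 0.38 in Ws. In the reference channel, which held the same pool on every array, listed members differed between the 2 groups of arrays by a median of 0.11 to 0.15 on the log2 scale in the 6 pairings. The largest such difference of a pairing ran from 0.39 in Wa relative to Ws to 1.22 in W/D relative to Wa, and it is part of the ratio. The Cy5 channel alone kept the sign of the ratio for every listed member.

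The lists and the present values did not always part at 2-fold, a log2 difference of 1. In D relative to Wa the smallest listed difference was peroxiredoxin-5 at 0.64 and the largest unlisted one LEAP-2 at 1.31. In D relative to Ws they were homogentisate 1,2-dioxygenase at 0.73 and natural resistance-associated macrophage protein 2 at 1.09. In Wa relative to Ws they were methionine-R-sulfoxide reductase B1 at 0.80 and LEAP-2 at 1.52, in W/D relative to Wa C-factor at -0.87 and retinol dehydrogenase 12 at 1.04, in W/D relative to Ws mitochondrial aldehyde dehydrogenase at 0.88 and the saxitoxin and tetrodotoxin-binding protein 2 at 1.47, and in W/D relative to D peroxiredoxin-5 at -0.35 and xanthine dehydrogenase/oxidase at 0.88. The cause of these gaps was not tested. Oligos can bind close gene copies, which are frequent in trout, and the copies behind a spot cannot be told apart here.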

How the data were processed

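The authors deposited, for each array, the mean intensity and local background of every spot in both dye channels as quantified in ImaGene, not normalised, and a table of log2 ratios that per the methods were made in GeneSpring by LOWESS and centring on the median of all samples. The intensities were background-corrected (normexp, offset 50) and loess-normalised within each array (limma 3.58.1, R 4.3.3). Control spots had no weight, and values with the undefined flag 3 were set to missing (1.81% of the kept values). An oligo was kept where some group had an unflagged Cy5 signal of 300 or more on its 6 arrays and every group had a value (8679 of 43689). Group means were fitted over all 24 arrays with lmFit and eBayes and adjusted by Benjamini-Hochberg within each pairing; a missing value is left out of its group mean. Above background means more than 2 standard deviations over the local mean. The fit was checked on simulated data.

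Members come from the published lists, and the lists, roles and comparisons were chosen with earlier results of these data known. Every description is named; where its representative spot differed at least 2-fold without overlap the lowest, median and highest fish are given, otherwise medians or differences. The replicate number was taken as the slide, shared by 1 fish of each group. The slide was read from the array code of each sample, and no label states it in words. Deviations from the group means of fish on 1 slide, so read, correlated by -0.14 to 0.20. The titles of D replicates 4 and 6 carry 1 fish number but their descriptions differ, and they were kept as 2 fish. Their correlation, 0.61, lay within that of other D pairs (0.39 to 0.64). It cannot decide the matter, since no known duplicate was at hand for comparison. Probe annotation and sequences were not used here, so no position in the genome is given, and genes of the wider pathways could not be looked up.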

Additional observations from a re-analysis of the deposited data

Results flagged for a closer look

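Within each group, the lowest or highest fish of each representative spot was set against its own group by Dixon's ratio. Of 169 groups with 4 or more values, 13 held a fish past the critical value, and chance gives about 1 in 20 groups, which is 8.45 of 169. W/D replicate 3 appeared 2 times, at 0.07 for LEAP-2, where the next hybrid fish was at 2.61, and at -1.29 for glutathione S-transferase P 1, where the next was at -0.11. The array of this fish had 35.4% of oligos above background, the lowest share among the hybrid arrays. The part of this in its values was not tested. W/D replicate 1 was high for epidermal retinal dehydrogenase 2, at 2.30, and low for homogentisate 1,2-dioxygenase, at 0.01. W/D replicate 5 was high for antigen peptide transporter 1, at 0.25. Among domesticated fish, D replicate 1 was low for UDP-glucuronosyltransferase 2B15, at -2.69 with the next fish at -0.82, and D replicate 2 was high for cold-inducible RNA-binding protein, at -0.45. In Wa, replicate 2 was high for C-factor, at 0.43, and replicate 4 was high for BolA-like protein 2, at 1.26. In Ws, replicate 1 was high for heme oxygenase, at 0.59 with the next fish at -0.76, and low for homogentisate 1,2-dioxygenase, at -1. Ws replicate 4 was low for retinol dehydrogenase 12, at -1.26, and high for glutathione transferase omega-1, at 0.49.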

How the results depend on the processing

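The counts of members called (D against Wa 23, D against Ws 23, Wa against Ws 5, W/D against Wa 10, W/D against Ws 17, W/D against D 12) moved by more than 1.5 times in 1 or more pairings under 8 of 18 settings. Asking for a signal of 300 on all 24 arrays left 24 members to test and gave 5, 8, 3, 4, 7 and 3 calls in the same order. Without the filter, 3 were called in Wa against Ws; with no fold change threshold, 26 in W/D against Ws; and with median centring in place of loess, 7 in W/D against D. Median centring also moved the median of all kept oligos to -0.18 in D against Wa and to between 0.16 and 0.17 in Wa against Ws, W/D against Ws and W/D against D, and the share of all calls that were higher from 55.9% to 32.4%, from 57.1% to 80.2%, from 67.6% to 83% and from 52.3% to 82.6%. That share moved from 57.1% to 69.6% for Wa against Ws with the Cy5 channel alone, from 52.3% to 39.7% for W/D against D with the deposited ratios and to 42% without D replicate 6, and with a signal of 300 on all arrays to 16.7% in that pairing and from 67.9% to 55.6% in W/D against Wa. With the replicate block (slide as a block) the counts were 22, 23, 5, 10, 16 and 12, and no count moved by over 1.5 times. Leaving out 1 replicate number from every group gave 19 to 26, 17 to 25, 1 to 7, 6 to 10, 9 to 17 and 7 to 11. The count for Wa against Ws was 1 without replicate 1, 2 or 6 and 3 without replicate 5, that for W/D against Wa was 6 without replicate 1 or 5, that for W/D against Ws was 9 without replicate 6, and that for W/D against D was 7 without replicate 1. The cause of these moves was not tested. Of 87 listed or called values of representative spots, recomputed 1328 times over the alternatives, the sign was kept each time; 152 lost a call and 62 gained one. These alternatives left out the overall ANOVA with Tukey's test of the paper's methods and the setting with no fold change threshold, which were applied to the counts only. With that ANOVA the counts were 17, 20, 6, 11, 16 and 11. Of the 59 called values, 24 were called in every alternative computed for them. Among these were both P 1 transferase differences with D and Wa or Ws, and UDP-glucuronosyltransferase 2A1 in D against both wild groups. Also among them were lysozyme C II and plasminogen in D and W/D against Wa, and LEAP-2 in D against Ws. Calls made in fewer than 8 of 15 were type-4 ice-structuring protein LS-12 (3) and phospholipid scramblase 1 (6) in D against Wa, BolA-like protein 2 in Wa against Ws (7), UDP-glucuronosyltransferase 2A1 in W/D against Wa (7) and the saxitoxin and tetrodotoxin-binding protein 2 in W/D against D (7). Precision is limited by the 6 fish per group and by dim spots near background.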
